A study of Homo sapiens with 8 samples.

Results

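The genes described here are 8 parts of the cell death machinery. They are the initiator caspases CASP2, CASP8 and CASP9, the effector caspase CASP6, the caspase-9 platform APAF1, the caspase inhibitor XIAP and the death receptors TNFRSF10A and TNFRSF25. They were found by mapping the Entrez gene IDs of the count tables to these symbols, which gave all 8 of the 27936 genes with an ID. The RNA of HEK293 cells, a transformed human line grown out of embryonic kidney tissue, had been sequenced in 8 libraries, and the study asked which genes differ between cells labelled TIP60 knock-out (KO) and control cells. The groups were KO sgRNA1, KO sgRNA2, control sgRNA1 and control sgRNA2, with 2 libraries each, and all 8 samples had doxycycline at 1 µg/ml for 3 days to induce the single guide RNAs. The genotype is given as HEKg1/C9 for all KO libraries and as HEKg1 for all control libraries, with no explanation of either name, and the guides' targets are not given. TIP60, the product of KAT5, is an enzyme that acetylates lysines of histones and other proteins.

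Caspases are proteases that cut after aspartate and are made as inactive precursors. In the intrinsic route, cytochrome c released from mitochondria binds APAF1, which assembles into the apoptosome and activates caspase-9. In the extrinsic route, a ligand such as TRAIL binds a death receptor, the adaptor FADD is recruited and caspase-8 is activated. Both routes converge on effector caspases, which XIAP and its relatives hold in check. HEK293 cells carry adenoviral genes that interfere with p53, a regulator of several of these genes.

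Counts per library summed to between 3723992 and 18841774, and control sgRNA1 replicate 2 was the shallowest. KAT5, the gene of the labelled knock-out, had 18.6, 18.3, 20.2 and 18.0 CPM in the KO libraries, against 48.1, 45.5, 44.5 and 49.0 in the control libraries. CPM here are counts scaled to library depth with TMM factors, and libraries are listed as sgRNA1 replicates 1 and 2 and then sgRNA2 replicates 1 and 2. Of the bases in KAT5 exons, 38.6% lie under a gene on the other strand, and the strand setting of the counting is not given. Of the kidney-lineage genes looked at, PAX2 reached at most 1.31 CPM and LHX1 at most 0.292 CPM in any library, while the neurofilament gene NEFM was at 7538 CPM or more in every library. In the comparisons below, fold changes come from edgeR's quasi-likelihood test over 14455 genes, with p-values adjusted by Benjamini-Hochberg. Whether replicates came from separate cultures is not stated in the labels, so p-values measure only the spread between these libraries.

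CASP9 was the member that rose, TNFRSF25 fell most, and CASP2, CASP8 and XIAP fell by less. CASP6 and APAF1 did not pass the test, and TNFRSF10A had too few counts to be tested. Thus 5 of the 7 tested members were called, 1 higher and 4 lower, at an adjusted p under 0.05. Of all tested genes, 63% were called, 31.8% higher and 31.2% lower, so the share of members called was close to the background. The median log2 fold change of the 7 members was -0.16, beside 0.0069 over all tested genes. In bulk RNA a change in the share of cells that express a gene and a change in its RNA per cell cannot be told apart.

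**Figure D1:**
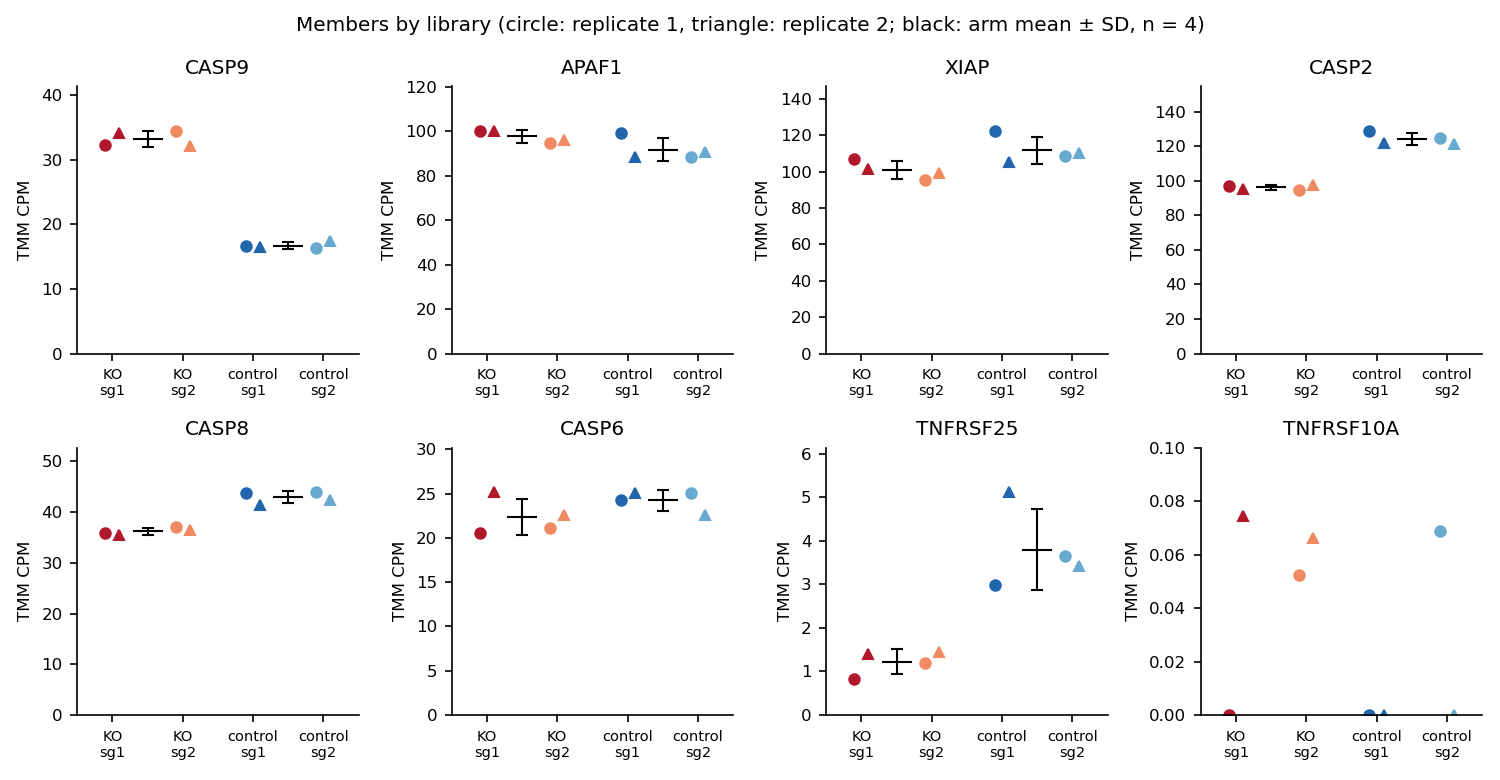
TMM-scaled CPM of each member in every library, with KO left of control, circles for replicate 1 and triangles for replicate 2. Black bars give the mean ± SD of 4 libraries of an arm, except for TNFRSF10A, which had at most 1 count in any library. The arms do not overlap for CASP9, CASP2, CASP8 and TNFRSF25.

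Among the members, the only called rise was in the intrinsic route. CASP9, the initiator caspase of the apoptosome (gene ID 842, chromosome 1, 15491401 to 15524912, GRCh38.p14), had 32.3, 34.1, 34.5 and 32.1 CPM in the KO libraries, against 16.6, 16.4, 16.3 and 17.4 CPM in the control libraries. Every KO library was far above every control library, and within each arm the values lay close together. The log2 fold change was 0.99 ± 0.068 (SE, adjusted p = 1.16e-10), a 1.99-fold higher level. Its size exceeded that of 90.3% of all tested genes. For the other called members this share was 95.4% for TNFRSF25, 60.6% for CASP2, 44.6% for CASP8 and 31.0% for XIAP. Of the exonic bases of CASP9, 2.01% overlap a gene on the other strand.

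APAF1, which binds cytochrome c and recruits caspase-9 (gene ID 317, chromosome 12, 98645290 to 98735433), had 100.3, 100.1, 94.6 and 96.1 CPM in the KO libraries, against 99.1, 88.6, 88.6 and 90.8 CPM in the control libraries. The arms overlapped because control sgRNA1 replicate 1 lay among the KO libraries. The log2 fold change was 0.08 ± 0.045 (adjusted p = 0.129), with a 95% interval of -0.01 to 0.18. Without control sgRNA1 replicate 1 it was 0.12 (adjusted p = 0.0342), and with library totals alone in place of TMM it was 0.11 (adjusted p = 0.0259).

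XIAP, which inhibits caspase-9 and effector caspases by direct binding (gene ID 331, chromosome X, 123859708 to 123913972), had 107.0, 101.5, 95.4 and 99.1 CPM in the KO libraries, against 122.6, 105.5, 108.7 and 110.4 CPM in the control libraries. The highest KO library reached above the lowest control library, so the arms overlapped. XIAP fell, with a log2 fold change of -0.16 ± 0.048 (adjusted p = 0.00550). It stayed called in every alternative setting of this comparison, with log2 fold changes of -0.21 to -0.12. Copies of XIAP elsewhere in the genome may share its reads, and how the counting treated such reads is not given.

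CASP2, an initiator caspase activated on a platform built by the death domain protein PIDD1 (gene ID 835, chromosome 7, 143288351 to 143307696), had 97.0, 95.1, 94.7 and 97.6 CPM in the KO libraries, against 129.0, 122.0, 125.0 and 121.1 CPM in the control libraries. All KO libraries were below all control libraries, by a gap wider than the spread of either arm. CASP2 fell, with a log2 fold change of -0.37 ± 0.043 (adjusted p = 2.15e-07), to 77.3% of the control mean.

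In the extrinsic route, CASP8 and TNFRSF25 fell. CASP8, the initiator caspase recruited by FADD (gene ID 841, chromosome 2, 201233463 to 201287711), had 36.0, 35.5, 37.0 and 36.5 CPM in the KO libraries, against 43.8, 41.5, 43.9 and 42.5 CPM in the control libraries. The arms did not overlap, and the KO libraries lay within a narrow range. The log2 fold change was -0.25 ± 0.054 (adjusted p = 0.000396).

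TNFRSF25 encodes death receptor 3, which carries a death domain and binds the ligand TL1A (gene ID 8718, chromosome 1, 6460786 to 6466173). It was weakly expressed, with 14, 19, 23 and 22 counts in the KO libraries and 37, 19, 53 and 42 counts in the control libraries. Scaled for depth these were 0.817, 1.41, 1.202 and 1.46 CPM in the KO libraries, against 2.99, 5.12, 3.66 and 3.42 CPM in the control libraries. Each KO library was below each control library, and the highest control value came from the shallowest library. TNFRSF25 fell by 1.54 ± 0.23 on the log2 scale (adjusted p = 5.74e-06), to 32.2% of the control mean. Without that shallowest library its log2 fold change was -1.45.

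The other death receptor, TNFRSF10A, a receptor of TRAIL on chromosome 8 (gene ID 8797), had 0, 1, 1 and 1 counts in the KO libraries and 0, 0, 1 and 0 counts in the control libraries. At this depth no difference was detectable, and no fold change or test is given.

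CASP6, an effector caspase known for cleaving nuclear lamins (gene ID 839, chromosome 4, 109664388 to 109709767), had 20.5, 25.2, 21.2 and 22.6 CPM in the KO libraries, against 24.2, 25.0, 25.1 and 22.5 CPM in the control libraries. The arms overlapped, and KO sgRNA1 replicate 2 was higher than all control libraries. The log2 fold change was -0.12 ± 0.077 (adjusted p = 0.185), with a 95% interval of -0.28 to 0.04.

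Among the tested members, CPM of the arms did not overlap for 4 of 7, with KO above in 1 and KO below in 3. The same held for 52.9% of all tested genes, 27.3% with KO above and 25.6% with KO below.

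The difference between KO and control was measured again with each guide. With both guides the genotype name changes together with the KO label, so effects of these cannot be told apart. CASP9 rose by 1.00 ± 0.11 on the log2 scale with sgRNA1 (adjusted p = 6.49e-07) and by 0.99 ± 0.092 with sgRNA2 (adjusted p = 1.10e-07). CASP2 changed by -0.39 ± 0.064 with sgRNA1 (adjusted p = 6.95e-05) and by -0.36 ± 0.060 with sgRNA2 (adjusted p = 8.45e-05). Both were called with each guide under each alternative setting run. TNFRSF25 changed by -1.71 ± 0.36 with sgRNA1 (adjusted p = 0.000706) and by -1.42 ± 0.30 with sgRNA2 (adjusted p = 0.000644). CASP8 changed by -0.27 ± 0.082 with sgRNA1 (adjusted p = 0.0117) and by -0.23 ± 0.074 with sgRNA2 (adjusted p = 0.0131). These CASP8 calls were close to the threshold, and DESeq2 made neither (-0.27, adjusted p = 0.0730 with sgRNA1 and -0.23, adjusted p = 0.101 with sgRNA2). With libraries thinned to the depth of the smallest, CASP8 had -0.09 with sgRNA1 (adjusted p = 0.606) and -0.37 with sgRNA2 (adjusted p = 0.0331). The sgRNA1 call was lost without KO sgRNA1 replicate 1 (-0.28, adjusted p = 0.0534), KO sgRNA1 replicate 2 (-0.27, adjusted p = 0.0568) or control sgRNA1 replicate 1 (-0.22, adjusted p = 0.179). The sgRNA2 call was lost without KO sgRNA2 replicate 2 (-0.22, adjusted p = 0.0503) or control sgRNA2 replicate 1 (-0.21, adjusted p = 0.112).

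XIAP changed by -0.15 ± 0.072 with sgRNA1 (adjusted p = 0.0868) and by -0.17 ± 0.068 with sgRNA2 (adjusted p = 0.0419). The sgRNA1 value rested on which control library was used. It was -0.02 (adjusted p = 0.877) without control sgRNA1 replicate 1 and -0.24 (adjusted p = 0.00526) without control sgRNA1 replicate 2. The sgRNA2 call was lost when any of 6 libraries was left out, with log2 fold changes of -0.20 to -0.15. These 6 were all KO libraries and both control sgRNA2 libraries. It was also lost with library totals alone (adjusted p = 0.0763), DESeq2 (0.120), the filter at 1 CPM in 4 libraries (0.0512), thinning (0.0949) and the replicate block (0.0569), so it was lost in 11 of 15 alternatives. CASP6 and APAF1 passed with neither guide. With sgRNA1, 4 of 7 members were called, 1 higher and 3 lower, beside 47.6% of all tested genes (24.3% higher and 23.3% lower). With sgRNA2, 5 of 7 were called, 1 higher and 4 lower, beside 51.2% of all tested genes (25.7% higher and 25.4% lower). Only 3 members were called with sgRNA2 without KO sgRNA2 replicate 2 or without control sgRNA2 replicate 1. The difference between the guides' effects was called by edgeR for 0% of tested genes, among them 0 members. DESeq2 also called 0 genes. An unadjusted p under 0.05 in edgeR was reached by 638 genes, 4.41% of those tested. The smallest unadjusted p of a member was 0.553.

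**Figure D2:**
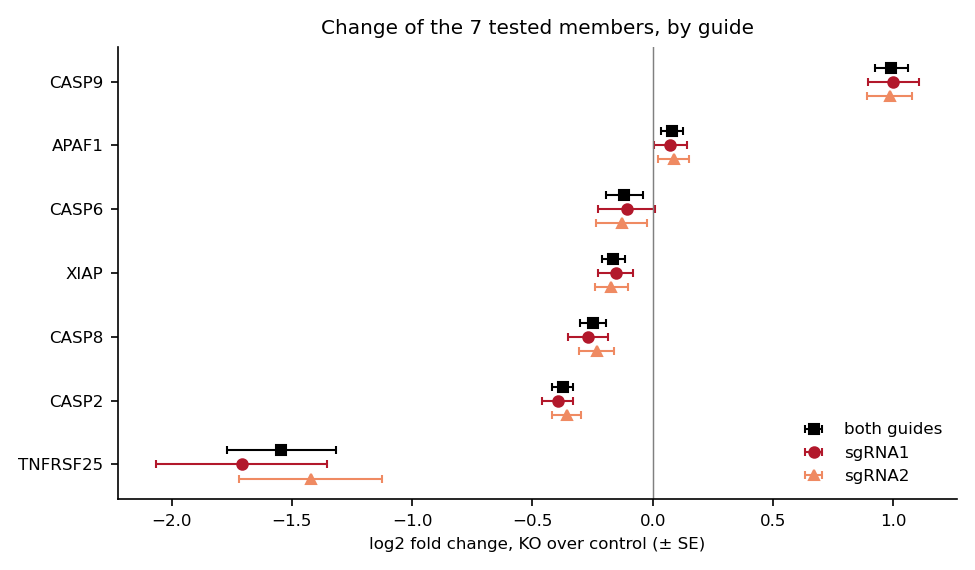
Log2 fold change of KO over control (x axis) for the 7 tested members, with both guides together (black squares) and within sgRNA1 (circles) and sgRNA2 (triangles). Bars give ± 1 SE, and the estimates of the guides lie within each other's bars or close to them, from CASP9 at 0.99 to TNFRSF25 at -1.54.

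Per kilobase of deposited gene length, the order of the members differed between the arms at 2 places. In KO libraries CASP2 was highest at 22.1 ± 0.329 CPM per kilobase (SD, n = 4), followed by APAF1 at 12.6 ± 0.369 and XIAP at 11.7 ± 0.563. The ranges of APAF1 and XIAP overlapped, so their order there is not beyond their spread. CASP8 (8.74 ± 0.162), CASP9 (6.35 ± 0.236), CASP6 (3.15 ± 0.289), TNFRSF25 (0.637 ± 0.152) and TNFRSF10A (0.0275 ± 0.0191) came next, each with a range apart from its neighbours. In control libraries CASP2 was again highest at 28.5 ± 0.820 CPM per kilobase, with XIAP at 12.9 ± 0.863 and APAF1 at 11.8 ± 0.646 overlapping each other. CASP8 followed at 10.3 ± 0.286. CASP6 (3.41 ± 0.168) and CASP9 (3.19 ± 0.0927) overlapped, above TNFRSF25 (1.98 ± 0.482) and TNFRSF10A (0.00985 ± 0.0197). CASP9 thus stood apart above CASP6 in KO libraries, and their ranges met in control libraries. How the deposited gene lengths treat isoforms is not given, so a gene read mainly from a short isoform may be understated on this scale.

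Ratios within a library do not depend on how libraries are scaled to each other. The ratio of XIAP to CASP9, an inhibitor over a caspase it binds, was 2.01, 1.80, 1.68 and 1.87 in the KO libraries, against 4.47, 3.90, 4.03 and 3.85 in the control libraries (counts per kilobase over counts per kilobase). The highest KO ratio was below the lowest control ratio. KO ratios were 0.453 times the control ratios by geometric mean (two-sided exact permutation test over 4 KO and 4 control libraries, p = 0.0286, adjusted p = 0.0286 over 3 ratios). This p is the smallest that 4 against 4 libraries allow. The 2 ratios over CASP9 share its counts and largely restate its rise, which was known when the ratios were chosen.

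The ratio of APAF1 to CASP9 was 2.10, 1.98, 1.85 and 2.02 in the KO libraries, against 4.02, 3.64, 3.66 and 3.52 in the control libraries. It was 0.535 times the control ratio, again without overlap (exact permutation p = 0.0286, adjusted p = 0.0286). The ratio of CASP8 to CFLAR, the catalytically inactive relative of caspase-8 that limits its activation, was 2.53, 2.73, 2.92 and 2.77 in the KO libraries, against 2.37, 2.06, 2.27 and 2.28 in the control libraries. It was 1.22 times the control ratio, since CFLAR fell by more than CASP8 (exact permutation p = 0.0286, adjusted p = 0.0286). This ratio too was chosen with earlier results of these data known, and it restates the unequal falls of its genes. A planned ratio of TNFRSF10A to its paralog TNFRSF10B could not be given, as TNFRSF10A had no count in 4 libraries.

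**Figure D3:**
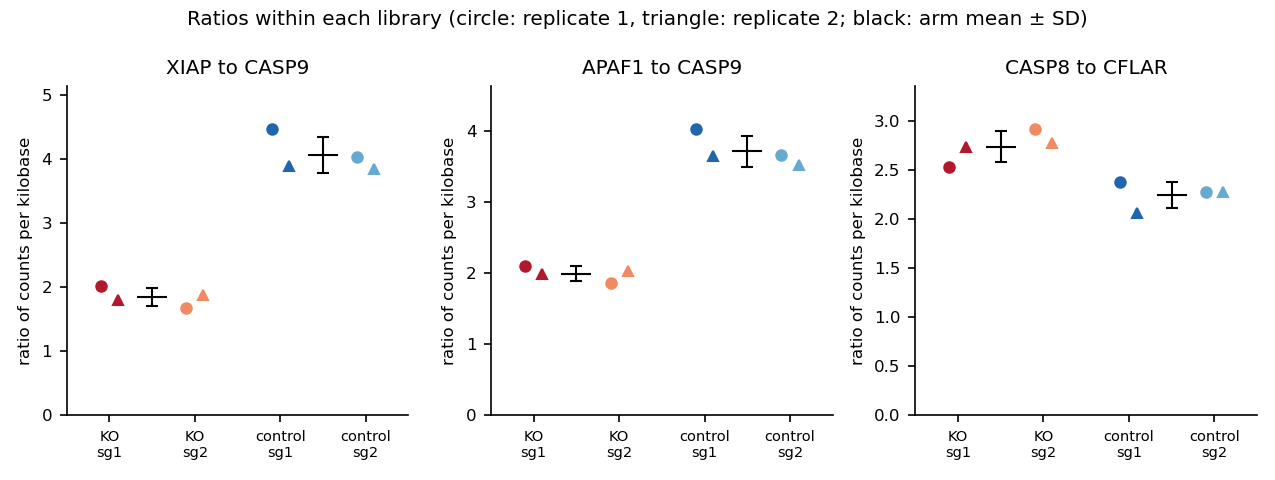
Ratio of counts per kilobase of XIAP to CASP9, APAF1 to CASP9 and CASP8 to CFLAR in each library, with KO left of control, circles for replicate 1, triangles for replicate 2 and black bars for the mean ± SD of 4 libraries. KO ratios lie between 1.68 and 2.10 in the first 2 panels, below all control ratios, and above the control ratios in the third.

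Other genes of the pathway were taken from 7 lists with 54 entries, of which 37 were tested. In these lists 14 genes were higher and 17 lower, beside 63% called among all tested genes, and their median log2 fold change was 0.05. CASP10, a relative of CASP8, had -0.16 ± 0.085 (adjusted p = 0.113). The inflammatory caspases CASP1 and CASP5 had no count in any library.

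Of 10 other death receptors and decoys, 7 were tested. Among these 4 were higher and 3 lower, and the median log2 fold change was 0.21. NGFR, the p75 neurotrophin receptor, rose by 4.13 ± 0.14 (20.5 ± 1.22 CPM in KO and 1.19 ± 0.160 CPM in control libraries, adjusted p = 1.82e-15), and a gene on the other strand overlaps 27.1% of its exonic bases. TNFRSF21, death receptor 6, rose by 0.50 ± 0.055. FAS fell by 0.95 ± 0.084 on the log2 scale (14.9 ± 1.46 CPM in KO and 29.2 ± 3.15 CPM in control libraries, adjusted p = 5.34e-09). TNFRSF10B, a TRAIL receptor with a death domain, fell by 0.28 ± 0.044 (104.2 ± 2.13 CPM in KO and 125.8 ± 4.46 CPM in control libraries, adjusted p = 1.34e-05). The decoy receptors of TRAIL, named after their values were seen, were higher. TNFRSF10D had a log2 fold change of 0.21 ± 0.062 (37.5 ± 2.09 CPM in KO and 31.8 ± 1.89 CPM in control libraries, adjusted p = 0.00534). TNFRSF10C, at 1.13 ± 0.406 CPM in KO and 0.505 ± 0.172 CPM in control libraries, had 1.19 ± 0.38 (adjusted p = 0.00958). It had only 72 counts in all KO libraries and 21 in all control libraries. A gene on its own strand shares 39.3% of its exonic bases. Of tested genes averaging under 1 CPM, as it did, 40.8% were higher and 3.57% lower. Within guides, TNFRSF10C was called with neither (adjusted p = 0.131 with sgRNA1 and 0.0512 with sgRNA2). TNFRSF10D was called with sgRNA1 (0.0301) but not with sgRNA2 (0.0956). None of the 5 death ligands listed passed the filter on low counts. Transcripts of TRAIL itself (TNFSF10) were at 0.133 CPM or less in KO libraries and 0.161 CPM or less in control libraries, and FASLG, TNF and LTA had no count.

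Receptors of this family are common on leukocytes, whose markers were also read. The 7 leukocyte markers summed to 8.11 to 8.94 CPM in KO libraries and 4.31 to 5.97 CPM in control libraries. The 2 that were tested, CD14 and CD68, were both higher in KO (log2 fold changes 1.23 and 0.61), though 81.7% of the exonic bases of CD68 are shared with another gene. PTPRC, which defines leukocytes, was at 0.54 CPM or less in every library and HLA-DRA at 0. Fibroblast markers summed to 26.6 to 30.6 CPM in KO libraries and 20.9 to 31.9 CPM in control libraries, and endothelial markers to 0.668 to 1.81 CPM in KO libraries and 0 to 0.325 CPM in control libraries. Of the 6 fibroblast markers, DCN and LUM were at 0.175 CPM or less in every library, while COL1A1 had 15.9 to 20.1 CPM in KO libraries and 12.4 to 20.8 CPM in control libraries, and COL3A1 had 5.94 to 8.60 CPM in KO libraries and 4.85 to 6.90 CPM in control libraries. The part of other cells in the receptor values was not tested.

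Of 12 adaptors and regulators of death receptor signalling, 11 were tested, 4 higher and 6 lower, with a median of -0.24. The kinase RIPK1, which acts below TNF receptors, rose by 1.13 ± 0.061 (85.6 ± 6.54 CPM in KO and 38.9 ± 1.82 CPM in control libraries, adjusted p = 3.14e-12). CYLD, a deubiquitinase of the same complexes, rose by 0.58 ± 0.045. CFLAR (-0.52 ± 0.053, adjusted p = 4.07e-08), the adaptor TRAF2 (-0.53 ± 0.074) and FADD (-0.24 ± 0.066, adjusted p = 0.00352) fell. Of the exonic bases of FADD, 54.9% lie under a gene on the other strand. With all libraries thinned to the depth of the smallest, FADD had -0.18 (adjusted p = 0.141). Within guides, FADD was not called with sgRNA1 (-0.16, adjusted p = 0.200) and was called with sgRNA2 (-0.30, adjusted p = 0.00789).

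Of 5 mitochondrial proteins released in apoptosis, 1 was higher and 3 lower, with a median of -0.18. DIABLO, which displaces XIAP from caspases, rose by 0.22 ± 0.054 (adjusted p = 0.00130, and 0.0753 when thinned). AIFM1 fell by 0.35 ± 0.050, the nuclease ENDOG by 0.42 ± 0.094 and cytochrome c (CYCS) by 0.18 ± 0.061 on the log2 scale (adjusted p = 0.0148 for CYCS). With sgRNA1 neither ENDOG (-0.20, adjusted p = 0.224) nor CYCS (-0.12, adjusted p = 0.294) was called. With sgRNA2 both were, ENDOG at -0.59 (adjusted p = 0.000290) and CYCS at -0.24 (adjusted p = 0.0303). The difference between guides was called for neither gene. CYCS has many processed copies in the genome, so its counts are uncertain, and it lost the call without KO sgRNA2 replicate 1 (-0.11, adjusted p = 0.0865) and when thinned (-0.13, adjusted p = 0.0790). Of the exonic bases of ENDOG, 39.2% lie under another gene on the other strand, and of those of DIABLO 16% are shared with a gene on its own strand.

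Of 7 other inhibitor of apoptosis genes, 4 were tested and 1 was called, with a median of 0.09. BIRC5 (survivin), which also acts in mitosis, fell by 0.33 ± 0.042 (adjusted p = 1.14e-06). BIRC2 (0.05 ± 0.055, adjusted p = 0.483), BIRC3 (0.16 ± 0.18, adjusted p = 0.442) and BIRC6 (0.14 ± 0.073, adjusted p = 0.0997) did not pass. BIRC6 passed in 6 alternatives, among them without KO sgRNA1 replicate 2 (0.18, adjusted p = 0.0470) and without control sgRNA1 replicate 1 (0.27, adjusted p = 0.000401). Of 8 genes listed as caspase substrates or a partner of one, 7 were tested, 3 higher and 4 lower, with a median of -0.11. GSDME, a pore-forming protein cut by an effector caspase, rose by 1.30 ± 0.20 (4.34 ± 0.516 CPM in KO and 1.66 ± 0.452 CPM in control libraries, adjusted p = 1.28e-05), and spectrin SPTAN1 rose by 0.58 ± 0.045. DFFB, the partner of a substrate, is the nuclease that cuts DNA between nucleosomes. It fell by 0.86 ± 0.075 (17.0 ± 1.30 CPM in KO and 31.3 ± 2.69 CPM in control libraries, adjusted p = 3.51e-09). ACIN1 fell by 0.40 ± 0.041.

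**Figure D4:**
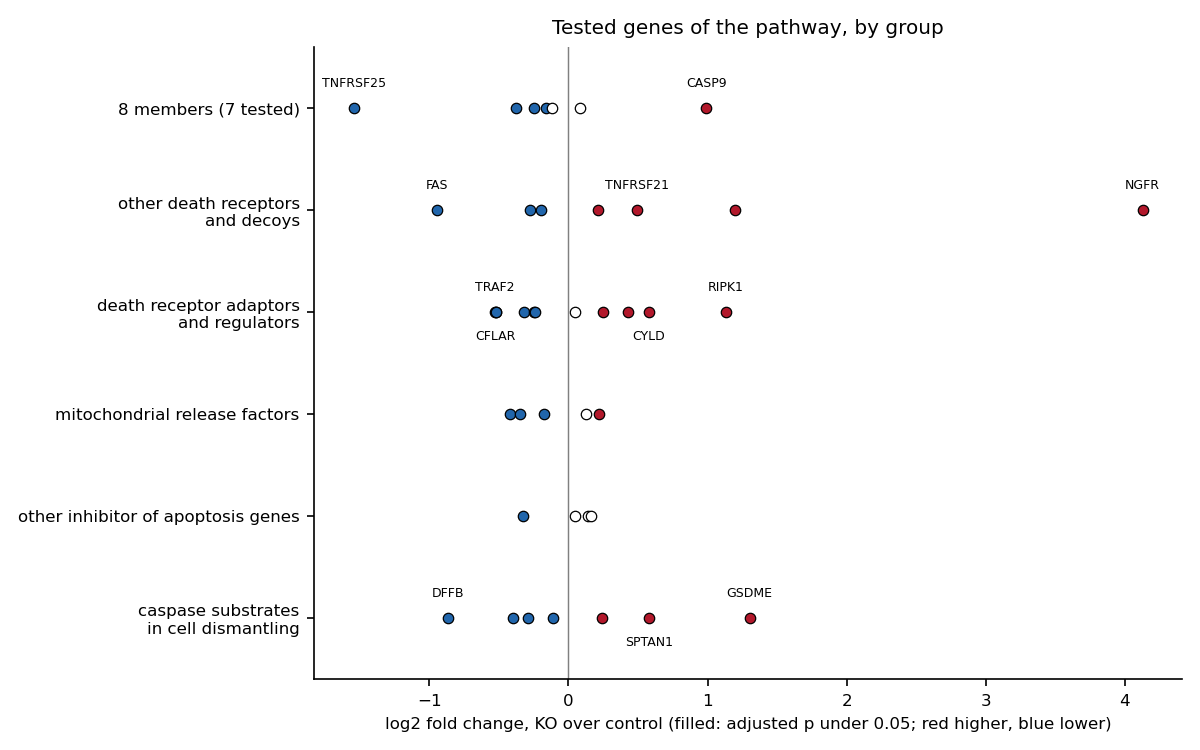
Log2 fold change of KO over control (x axis) for each tested gene, 1 point a gene, with the members in the top line and 5 of the pathway lists under it. Filled points passed the test (red higher, blue lower), and rises and falls stand side by side in most lists, with values from TNFRSF25 at -1.54 to NGFR at 4.13.

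CASP8, CASP10 and CFLAR lie next to each other on the same strand of chromosome 2. Their log2 fold changes were -0.25, -0.16 and -0.52, and CASP10 did not pass the test. On the other side of CASP8 the next tested gene, TRAK2, rose by 0.54 ± 0.052. The nearest tested gene on each side of every tested member, looked up after the members' values were known, gave 14 neighbours. Of these, 8 were called, 4 in the direction of the member and 4 against it, in a comparison that called 63% of all tested genes. DNAJC16, beyond the start of CASP9, was higher by 0.42 ± 0.071, and EFHD2, on the other side, was lower (-0.44 ± 0.048). IKBIP, whose span ends just before the start of APAF1, was lower (-0.59 ± 0.060). TNFRSF25 lay between PLEKHG5, which was also lower (-0.95 ± 0.15), and ESPN, which was higher (2.99 ± 0.27). Exons of TNFRSF25 share 2.43% of their bases with a gene on the same strand and 8.94% with one on the other strand, chiefly PLEKHG5 and ESPN.

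Promoters are shown for CASP9, CASP2 and TNFRSF25, the 3 members with the smallest p-values, because 1 of them rose and the others fell. Each is the RefSeq window of GRCh38.p14 from 250 bases before to 50 bases after the annotated start, read 5′ to 3′ on the gene's strand. For CASP9 the start used by the promoter table lies inside the gene span given above, downstream of its outer end. Capitals mark GGGCGG, the core of the GC box bound by SP1-type factors, and CCAAT, each on either strand. The CASP9 window is chr1:15524166-15524465 on the minus strand, that of CASP2 is chr7:143288101-143288400 on the plus strand and that of TNFRSF25 is chr1:6466124-6466423 on the minus strand.
CASP9: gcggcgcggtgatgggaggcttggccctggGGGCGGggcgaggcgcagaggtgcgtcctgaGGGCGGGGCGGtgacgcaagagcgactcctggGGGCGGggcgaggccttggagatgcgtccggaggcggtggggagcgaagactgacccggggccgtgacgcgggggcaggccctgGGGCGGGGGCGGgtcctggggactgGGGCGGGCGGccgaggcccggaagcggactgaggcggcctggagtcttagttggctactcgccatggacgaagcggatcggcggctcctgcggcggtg
CASP2: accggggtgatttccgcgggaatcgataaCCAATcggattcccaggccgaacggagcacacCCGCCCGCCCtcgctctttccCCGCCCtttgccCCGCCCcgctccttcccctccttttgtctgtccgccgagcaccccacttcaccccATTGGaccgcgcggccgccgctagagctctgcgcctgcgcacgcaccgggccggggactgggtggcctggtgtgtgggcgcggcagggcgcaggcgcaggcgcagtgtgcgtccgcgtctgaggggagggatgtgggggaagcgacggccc
TNFRSF25: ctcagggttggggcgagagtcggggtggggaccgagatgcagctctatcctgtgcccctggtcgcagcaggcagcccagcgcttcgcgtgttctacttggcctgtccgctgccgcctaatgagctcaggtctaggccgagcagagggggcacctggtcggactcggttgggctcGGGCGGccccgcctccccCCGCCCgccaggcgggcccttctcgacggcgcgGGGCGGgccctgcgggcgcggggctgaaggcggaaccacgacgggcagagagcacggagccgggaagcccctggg

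CASP9 held 8 GGGCGG sites in this window, some overlapping by a base or more, and no CCAAT. CASP2 held 4 GGGCGG sites and 2 CCAAT sites, and TNFRSF25 held 3 GGGCGG sites and no CCAAT. Each of the 7 members found in the promoter table held at least 1 GGGCGG, a motif present in 44.6% of the 27305 promoter windows, and CCAAT was also in that of APAF1 and is present in 35.7% of all windows. Also searched on both strands were the E-box sequence CACGTG, the TATA box sequence TATAAA and the AP-1 sequence TGACTCA. None of them was in any of the 7 windows, and they are present in 7.43%, 12% and 4.92% of all windows. GC content was 76% for CASP9, 71.3% for CASP2 and 73.3% for TNFRSF25, beside a median of 58.3% over all windows. A match of letters is a description of the sequence and not a bound site.

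Genes whose log2 CPM were most like those of a member over the 8 libraries were sought among 12726 genes whose log2 CPM averaged 1 or more. For CASP9 these were MR1 and LINC00673 (Pearson r = 0.999 each). For CASP2 they were RITA1 (r = 0.999) and UBE2K (r = 0.997), and for TNFRSF25 TCFL5 and EML3 (r = 0.993 each). These values are descriptions over libraries that fall into 2 arms, and r above 0.95 was reached by 1247 genes with CASP9, 1239 with CASP2 and 370 with TNFRSF25.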

How the data were processed

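RNA had been isolated with an RNeasy kit, and stranded TruSeq mRNA libraries were read from both ends for 80 bases on a NextSeq instrument, per the labels' protocols. The authors deposited raw counts per gene, 1 table per library, made with featureCounts on hg38 per the submitters' processing notes. The gene length in bases came in the same tables, per the file headers. For the aligner, annotation release and strand setting, values are not given in the sources used. Entries without a gene ID (459, holding 0.0284 to 0.0425% of counts) were left out, and 27744 of 27936 IDs had a RefSeq symbol (GRCh38.p14). Exon overlaps were measured on GENCODE v29.

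Low genes were dropped with filterByExpr over the 4 groups (at least 10 counts, total at least 15). KO was compared with control in edgeR 4.0.16 (quasi-likelihood, TMM) with a guide term and 5 residual degrees of freedom, and within guides, with the difference between guides, in a model of 4 group means with 4. Adjusted p-values are Benjamini-Hochberg over all 14455 genes. Ratios were tested by exact permutation over libraries. The code was tested on simulated counts. Alternatives were other scalings, DESeq2 1.42.0, other filters, binomial thinning to 3723992 counts, a replicate block, no guide term, and leaving out each library. Replicates of each group differed by more than sampling noise.

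The members, gene lists and tests were chosen with earlier results of these data known. Besides the members and KAT5, named genes are the up to 4 of each pathway list with the smallest p, with TNFRSF10B, FAS, FADD and CFLAR. Some genes of this rule are not reported here. Neighbouring genes, genes without a count, marker genes and genes lying beside a member are named outside this rule.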

Additional observations from a re-analysis of the deposited data

Results flagged for a closer look

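Of 70 sets of 4 libraries looked at (an arm's values of a named gene or ratio), 2 held a library far from the other 3 by Dixon's criterion, fewer than the 1 in 20 that chance gives. CASP10 had 13.4 CPM in KO sgRNA2 replicate 1, the highest KO library, with the next at 12.4 CPM. TRAF2 had 21.3 CPM in control sgRNA1 replicate 2, the shallowest library and the lowest control library for this gene, with the next at 25.9 CPM. None of the 8 members was among them.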

How the results depend on the processing

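For KO against control, 5 or 6 members were called under each alternative and 6556 to 9636 genes in all. Of 722 values of single genes under the alternatives, 683 kept direction and side of the threshold, 27 lost the call, 10 gained it and 2 changed sign. The last 2, both uncalled, were CASP6 with sgRNA1 (0.034 without KO sgRNA1 replicate 1, in a range of -0.26 to 0.034 over libraries left out) and BIRC2 (-0.0025 without control sgRNA2 replicate 2, in a range of -0.0025 to 0.094). Thinned to the smallest library, 4581 genes were called with sgRNA1 and 4581 with sgRNA2, in place of 6884 and 7395. The thinned counts left 12537 genes tested in place of 14455, and the cause of the lost calls was not tested. With sgRNA2, DESeq2 called 3 members in place of 5, and 3 to 5 were called when a library was left out. With sgRNA1, the calls went from 3 to 5 members. The difference between guides was called for 0 genes by edgeR with all libraries, for 11 with no filter, for 1 with the replicate block and for 0 to 36 when a library was left out, none of them members (36 without control sgRNA1 replicate 1, 23 without control sgRNA1 replicate 2 and 3 without KO sgRNA2 replicate 1). The cause was not tested. Same-numbered KO and control libraries of a guide did not deviate together (correlations of 0.0123 and 0.0253 across genes), so the numbers were not taken as pairs. With them as a replicate block, the ratio tests (log2 -1.14, -0.90 and 0.29) cannot go below an exact p of 0.125, and XIAP with sgRNA2 lost its call (adjusted p = 0.0569). With a library left out, the log2 ratios were -1.19 to -1.10 for XIAP to CASP9, -0.93 to -0.86 for APAF1 to CASP9 and 0.25 to 0.32 for CASP8 to CFLAR, where p cannot go below 0.0571. Among the members, low counts limit the death receptors most. TNFRSF25 had 78 counts in all KO libraries and 151 in all control libraries, and TNFRSF10A had 3 and 1. The planned ratio of TNFRSF10A to TNFRSF10B had no value without a pseudocount and its alternatives were not run, as TNFRSF10A had at most 1 count in any library, so adjusted p-values of the ratios are over the other 3.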
